A study of Mus musculus with 2 samples.

Results

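The genes described here are 8 mouse genes of secreted protease inhibitors: the murinoglobulins Mug1 and Mug2, their relative Pzp (pregnancy zone protein), and the serpins Serpina1a, Serpina1c, Serpina3k, Serpina3m and Serpina3n. They were 8 of 32285 genes in the count matrices, and all 8 were found there by name. They were chosen for their levels in the same libraries. The levels, ratios and shares below therefore describe these libraries and were not tested.

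The samples were 2 liver libraries of Glul f/f mice, in which the gene of glutamine synthetase, the enzyme that makes glutamine from glutamate and ammonia, carries floxed alleles. Both mice were 11 weeks old and bore no tumour. The GFP control mouse received AAV8-GFP, and the GS-KO mouse received AAV8-Cre, which deletes floxed sequence in the cells it enters. The sources used here do not give the promoter of the viral genes. Livers were taken 2 weeks after the virus, perfused with collagenase II at 0.3 mg/mL, and isolated hepatocytes and purified non-parenchymal cells entered 5PrimeV3 libraries from 10x Genomics. The labels call the assay both sc-RNA-Seq and snRNA-seq. Each group was 1 mouse and 1 library, so no difference between them has a replicate check, and all intervals below are 95% intervals that cover counting error only.

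Murinoglobulins and Pzp belong to the alpha-2-macroglobulin family. These large plasma proteins carry a bait region that many proteases cut, after which the inhibitor folds around the protease and the complex is cleared through Lrp1. Serpins work differently: a protease cuts an exposed loop of the serpin and is trapped by a change of the serpin's shape. Both families are made mainly by hepatocytes and secreted into plasma. In the mouse, single ancestral genes have become clusters of similar genes, so that the human SERPINA1 and SERPINA3 each have several mouse relatives that differ in the loop and hence in the proteases they bind.

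Levels were taken as UMIs (unique molecular identifiers, 1 per captured RNA molecule) per 1000000 UMIs (CPM) of summed barcodes in 3 size classes: small (200 to under 400 UMIs per barcode), middle (500 to under 1000) and large (1000 or more). The GFP control matrix held 166037 barcodes and 61635695 UMIs, the GS-KO matrix 175937 barcodes and 57973740 UMIs, with medians of 352 and 304 UMIs. The labels state at least 10000 cells, and only 1703 and 1834 barcodes reached 1000 UMIs. Small barcodes were the most numerous, at 116552 and 143687, and in such sums fewer cells of a type and less RNA per cell cannot be told apart. Glul, the targeted gene, was lower in the GS-KO library in each class, at 113 against 9.78 CPM in small, 118 against 27.8 CPM in middle and 124 against 31.5 CPM in large barcodes. All 12 hepatocyte markers were found in every class of both libraries. The libraries differed in Malat1, an RNA retained in nuclei, at 1709 against 1365 CPM in small, 7812 against 17706 CPM in middle and 19613 against 37630 CPM in large barcodes of the control and GS-KO. The median mitochondrial share of UMIs was 3.18% in the control and 2.15% in GS-KO in large barcodes. All 11 Kupffer cell markers were also higher in GS-KO in each class, with summed levels of 121 against 737 CPM in small, 290 against 1902 CPM in middle and 91.7 against 582 CPM in large barcodes, and none of the 11 was at 0 UMIs. The part of Malat1, mitochondrial RNA and Kupffer cell markers in the differences below was not tested, apart from the values given at matched Malat1 share and by cell class. A count of 8108 barcode sequences occurred in both libraries, and every value for the members moved by less than its counting interval when they were left out.

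The members lie on 2 chromosomes, with Pzp apart from the Mug genes. On mm10, Mug1 occupies chr6:121838541-121889057 and Mug2 chr6:122006761-122085965, both on the plus strand, and Pzp chr6:128483567-128526720 on the minus strand. Serpina1a (chr12:103853589-103863562) and Serpina1c (chr12:103894926-103904887) are on the minus strand of chromosome 12, and Serpina3k (chr12:104338486-104346144), Serpina3m (chr12:104338486-104394257) and Serpina3n (chr12:104406729-104414329) on its plus strand. The annotated Serpina3m gene starts at the first base of Serpina3k and spans all of it, with 7659 bases in common, so reads in that stretch cannot always be given to one of them. Pzp and Serpina1c overlap antisense genes, Gm10069 and B430119L08Rik, and the sources used here do not say whether counting used the strand.

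The pairs of near-identical paralogs that differed in level are shown by the 300 bases around their RefSeq transcription start, 250 before it and 50 after it, on GRCm38.p6, the assembly that mm10 also names. Of the 8 members, 6 were matched to a RefSeq promoter. Capitals mark GTTAAT on either strand, part of the binding site of the hepatocyte factor HNF1, and in Serpina1a also TTGCNNAA on either strand, a C/EBP-type motif. The Mug1 window is chr6:121838291-121838590, that of Mug2 chr6:122006548-122006847, both on the plus strand, and those of Serpina1a and Serpina1c are chr12:103863570-103863869 and chr12:103904901-103905200 on the minus strand.
Mug1: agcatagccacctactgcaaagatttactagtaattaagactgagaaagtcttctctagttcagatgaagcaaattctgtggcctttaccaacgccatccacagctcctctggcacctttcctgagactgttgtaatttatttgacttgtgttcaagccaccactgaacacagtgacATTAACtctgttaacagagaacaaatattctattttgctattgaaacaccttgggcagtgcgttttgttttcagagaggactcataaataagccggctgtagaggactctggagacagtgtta
Mug2: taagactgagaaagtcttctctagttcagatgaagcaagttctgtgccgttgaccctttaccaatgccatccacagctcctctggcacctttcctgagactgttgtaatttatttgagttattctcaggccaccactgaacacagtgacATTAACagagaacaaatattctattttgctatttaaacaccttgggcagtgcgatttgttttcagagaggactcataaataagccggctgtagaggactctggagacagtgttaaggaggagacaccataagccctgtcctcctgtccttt
Serpina1a: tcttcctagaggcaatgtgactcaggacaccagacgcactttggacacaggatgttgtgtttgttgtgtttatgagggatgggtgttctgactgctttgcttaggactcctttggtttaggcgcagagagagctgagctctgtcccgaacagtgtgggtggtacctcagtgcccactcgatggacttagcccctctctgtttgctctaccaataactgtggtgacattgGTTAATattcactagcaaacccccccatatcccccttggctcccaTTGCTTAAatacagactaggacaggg
Serpina1c: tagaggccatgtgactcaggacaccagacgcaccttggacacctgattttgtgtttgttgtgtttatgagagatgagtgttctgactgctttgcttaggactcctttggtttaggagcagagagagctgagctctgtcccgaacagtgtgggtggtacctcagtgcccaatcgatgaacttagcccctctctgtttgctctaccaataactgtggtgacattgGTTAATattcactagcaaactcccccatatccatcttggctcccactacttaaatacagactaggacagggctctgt

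The 2 Mug windows were 96.5% identical over 256 aligned bases, and those of Serpina1a and Serpina1c 94.9% over 294. GTTAAT was present in 5 of the 6 matched promoters (Mug1, Mug2, Pzp, Serpina1a and Serpina1c), and in 7.10% of all 32851 RefSeq promoters of this length. GTTAAT began 73 bases before the RefSeq start in Mug1, farther before it in Mug2, 21 before it in Serpina1a and 27 in Serpina1c. The RefSeq starts of Mug2, Serpina1a and Serpina1c differ from the gene starts given above. That of Mug2 lies inside the gene, and the windows of Serpina1a and Serpina1c end before the annotated genes begin. These distances thus depend on the annotation used. TTGCNNAA was present in Serpina1a, after its RefSeq start but before the annotated gene, and in 10.8% of all promoters. No match to TTCNNNGAA, a STAT motif found in 8.30% of promoters, to the palindromic glucocorticoid receptor element, found in 3 of all promoters, or to TATAAA, found in 13.6%, was present in any of the 6 windows, all searched on both strands. The motifs do not overlap each other in these windows, and a match or its lack describes the letters only.

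The transcripts of the pairs are also similar, which limits how reads can be assigned. The longest coding transcripts of Mug1 and Mug2 were 95.3% identical, those of Serpina1a and Serpina1c 98.8%, of Serpina3k and Serpina3m 91.7%, and of Serpina3k and Serpina3n 81.5%. Of all 90-base windows of a transcript, 10.4% in Mug1 and 30.04% in Mug2 recurred exactly in another annotated transcript, against 0% in Pzp, 5.84% in Serpina3k, 7.32% in Serpina3m and 0.709% in Serpina3n. In the first 500 bases, where a 5-prime library reads, this share was 8.03% in Mug1 and 100% in Mug2. For Serpina1a it was 39.4% and for Serpina1c 100%. Over all 90-base windows of Mug2 the most frequent match was the pseudogene Mug-ps1, which is no row of the matrix. Levels of Mug2, Serpina1a and Serpina1c are thus uncertain to the extent that reads were shared or dropped, and the sources used here do not state the read length.

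Mug1, the murinoglobulin that circulates at high levels in adult mouse plasma, was higher in the GS-KO library in each size class. In small barcodes the control held 3982 CPM and GS-KO 6902 CPM. In middle barcodes it was 3466 against 7811 CPM, a 2.25-fold difference, and in large barcodes 2444 against 10273 CPM, a 4.20-fold difference. The log2 ratio of GS-KO over control thus went from 0.79 through 1.17 to 2.07 (2.03 to 2.11), and the libraries' counting intervals did not overlap in any class. The direction over barcode size was opposite in the libraries. In the control Mug1 was lower in large than in small barcodes, with a log2 ratio of -0.70 (-0.74 to -0.66), and in GS-KO it was higher in large barcodes, with 0.57 (0.56 to 0.59).

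Mug2, the second murinoglobulin, stood at far lower counts and had the largest ratios of the 8 members. In small barcodes 398 UMIs in the control and 2319 in GS-KO gave 10.5 and 53.9 CPM, a 5.15-fold difference. In middle barcodes the levels were 33.6 and 647 CPM, 19.2-fold apart, with a log2 ratio of 4.27. In the middle barcodes with a Malat1 share of 1% to under 2% they were 67.9 and 768 CPM, a log2 ratio of 3.50. In large barcodes 161 and 3002 UMIs gave 73.8 CPM (62.8 to 86.1) in the control and 1229 CPM (1185 to 1273) in GS-KO, 16.6-fold apart, with a log2 ratio of 4.05 (3.83 to 4.30). Unlike Mug1, Mug2 was higher in large than in small barcodes in both libraries, 7.07-fold in the control and 22.8-fold in GS-KO. Of all genes with at least 100 UMIs, 33.9% in the control and 39% in GS-KO were at least 2-fold higher in large than in small barcodes, as was 1 of the 8 members in each library, Mug2. At least 2-fold lower in large barcodes were 11.4% of genes in the control and 13.4% in GS-KO, against Serpina3k alone in the control and Serpina3k and Serpina3m in GS-KO.

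Mug1 and Mug2 are compared as shares of their joint UMIs, which do not depend on the rest of the library. In the control Mug2 made up 0.262% of them in small barcodes, 0.959% in middle and 2.93% (2.50 to 3.41) in large barcodes. In GS-KO the shares were 0.775%, 7.65% and 10.7% (10.3 to 11.0). There were 381 Mug1 UMIs for each Mug2 UMI in small control barcodes, 128 in small GS-KO barcodes, 33.1 in large control barcodes and 8.36 in large GS-KO barcodes. Mug1 remained the main murinoglobulin by UMIs in every class, and its share was lower in GS-KO each time.

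Pzp, the mouse protein nearest to human alpha-2-macroglobulin in its plasma role, was higher in GS-KO at 6315 against 10200 CPM, 5263 against 7925 CPM and 3298 against 6097 CPM from the smallest to the largest class. Its log2 ratios of 0.69, 0.59 and 0.89 stayed under 2-fold. Pzp was lower in large than in small barcodes in both libraries, with log2 ratios of -0.94 in the control and -0.74 in GS-KO. Of the UMIs of Pzp, Mug1 and Mug2 together, Pzp held 61.3%, 60.1% and 56.7% in the 3 classes of the control. In GS-KO it held 59.5%, 48.4% and 34.6%, and of the 3 classes only the large one in GS-KO held more Mug1 than Pzp UMIs, with 25101 against 14898. In finer bins this was also so in GS-KO barcodes of 700 to under 1000 UMIs, with 24639 against 20688. How far gene or transcript length enters these shares was not tested, and the sources used here do not state whether introns were counted. A2m, the mouse alpha-2-macroglobulin gene, had 0 UMIs in each class of the control and at most 1 UMI in a class of GS-KO.

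**Figure D1:**
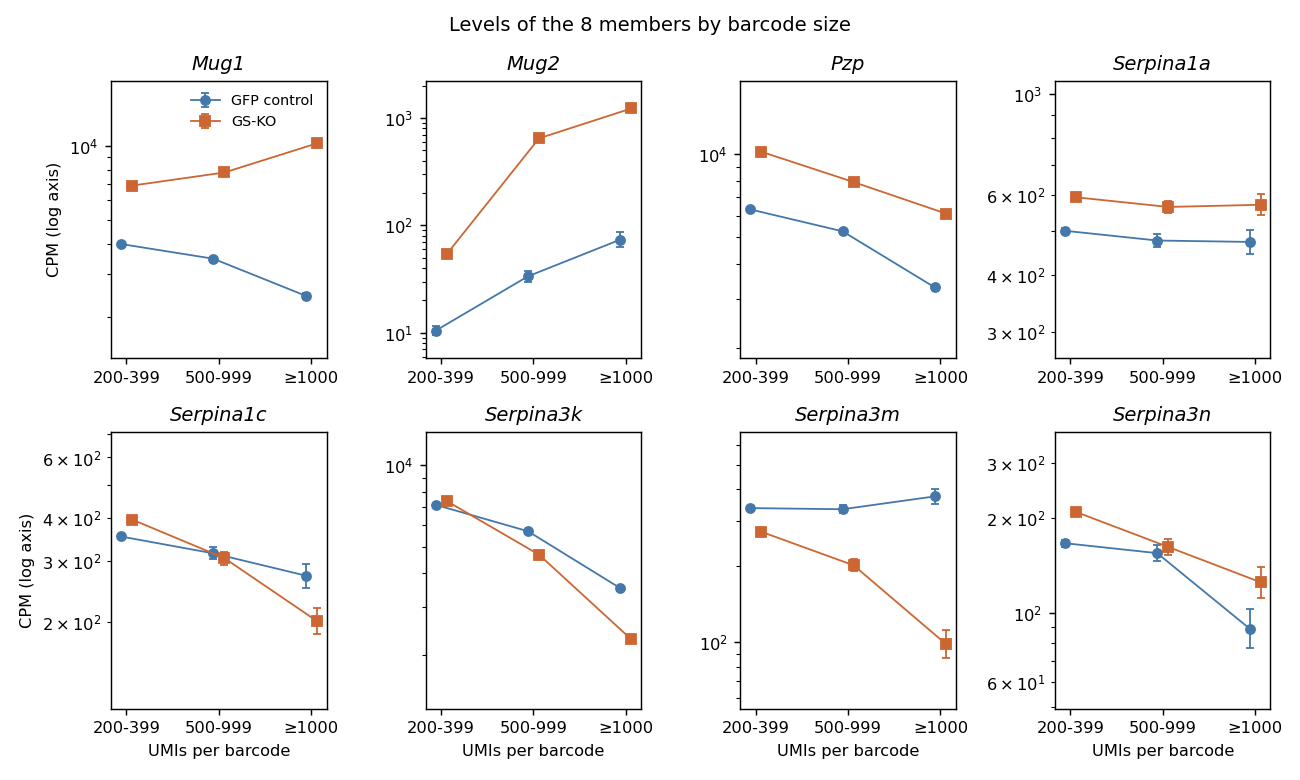
Levels of the 8 members (CPM of summed barcodes, log axis, different in each panel) in the GFP control (blue circles) and GS-KO (orange squares) libraries against barcode size, with 95% Poisson intervals. The Mug2 points are 16.6-fold apart in large barcodes, those of Serpina3m 3.82-fold apart in the other direction.

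Serpina1a and Serpina1c are mouse relatives of alpha-1-antitrypsin, the plasma inhibitor of neutrophil elastase. Serpina1a was at 501 against 594 CPM in small barcodes, 477 against 566 CPM in middle and 474 against 572 CPM in large barcodes. Its log2 ratio was 0.24, 0.25 and 0.27 (0.15 to 0.39), and in neither library did its level differ between small and large barcodes beyond counting error. Serpina1c was at 354 against 396 CPM, 316 against 306 CPM and 272 against 201 CPM. Its log2 ratio had opposite signs in small and large barcodes, from 0.16 through -0.05 (-0.13 to 0.04) to -0.44 (-0.61 to -0.26). Of the UMIs of Serpina1a to Serpina1e, Serpina1a held 11.5% in large control and 14.6% in large GS-KO barcodes, and Serpina1c 6.63% and 5.14%.

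Serpina3k, a mouse relative of alpha-1-antichymotrypsin that binds tissue kallikrein, was the serpin member with the most UMIs. It was at 7148 against 7381 CPM in small barcodes, 5713 against 4684 CPM in middle and 3524 against 2282 CPM in large barcodes. The log2 ratio was 0.05 in small barcodes and -0.29 in the middle class, and in large barcodes GS-KO was lower, at -0.63 (-0.68 to -0.58). In middle barcodes with a Malat1 share of 1% to under 2% the libraries held 4135 and 4117 CPM, a log2 ratio of -0.0062 (-0.065 to 0.052), which is within counting error. With free RNA, taken as the profile of small barcodes, removed, the log2 ratio was -0.77 in middle and -1.48 in large barcodes. The level was lower in large than in small barcodes in both libraries, by a log2 ratio of -1.02 in the control and -1.69 in GS-KO. Alb, the albumin gene, had log2 ratios of 0.02, -0.29 and -0.51 in the same 3 classes.

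Serpina3m, the neighbour whose gene model spans Serpina3k, was lower in GS-KO in each class. Its level was 338 against 273 CPM in small barcodes, 334 against 201 CPM in middle and 376 against 98.2 CPM in large barcodes, the last from 820 and 240 UMIs. The log2 ratios were -0.31, -0.73 and -1.93 (-2.15 to -1.73), the last a 3.82-fold difference. With free RNA removed the log2 ratio in large barcodes was -3.03. In the control Serpina3m was slightly higher in large than in small barcodes, with a log2 ratio of 0.15 (0.05 to 0.26), and in GS-KO it was lower, with -1.47 (-1.66 to -1.29).

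Serpina3n, an acute-phase serpin that inhibits granzyme B and neutrophil elastase, was at 166 against 209 CPM, 154 against 162 CPM and 88.9 against 125 CPM. Its log2 ratios were 0.33, 0.07 (-0.05 to 0.18) and 0.49 (0.23 to 0.76), so the middle class did not separate the libraries at this depth. Of the UMIs of Serpina3k, Serpina3m and Serpina3n, Serpina3n held 2.23% (1.93 to 2.56) in large control barcodes and 4.98% (4.45 to 5.56) in large GS-KO barcodes. Serpina3m held 9.42% and 3.92% there, so the order of the 2 minor paralogs was exchanged. In small barcodes Serpina3m was ahead in both libraries, with 4.41% against 2.17% in the control and 3.47% against 2.66% in GS-KO.

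**Figure D2:**
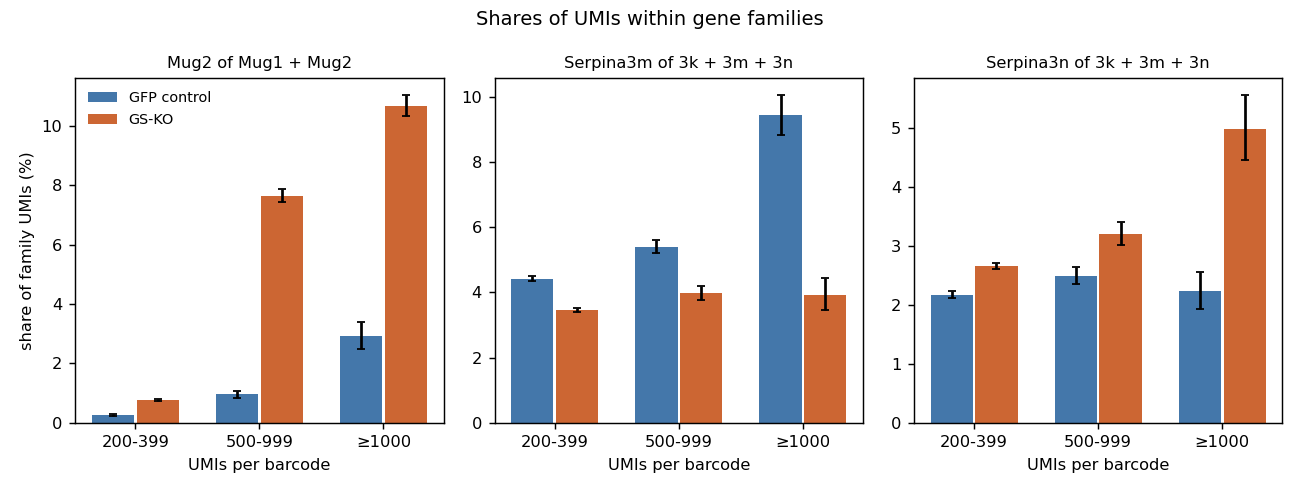
Shares of UMIs (%) within gene families in the GFP control (blue) and GS-KO (orange) libraries by barcode size, with exact 95% intervals as error bars. Mug2 reached 10.7% of Mug1 and Mug2 UMIs in large GS-KO barcodes, and Serpina3m was above Serpina3n in every class except large GS-KO barcodes.

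Over the 8 members, 1 was at least 2-fold higher in GS-KO in small barcodes (Mug2), 2 in middle (Mug1 and Mug2) and 2 in large barcodes (the same 2). None was at least 2-fold lower in the first 2 classes, and Serpina3m was in the last. Among all genes with at least 100 UMIs in the 2 libraries together, 9.29% of 11188 were at least 2-fold higher and 3.48% at least 2-fold lower in small barcodes. The shares were 10.7% and 3.04% of 9050 genes in middle, and 9.5% and 5.37% of 5991 genes in large barcodes. The median log2 ratio of the members was 0.29, 0.16 and 0.38, against -0.06, 0.08 and -0.01 over all genes tested. Since the members were chosen from these levels, nothing is read from the counts.

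**Figure D3:**
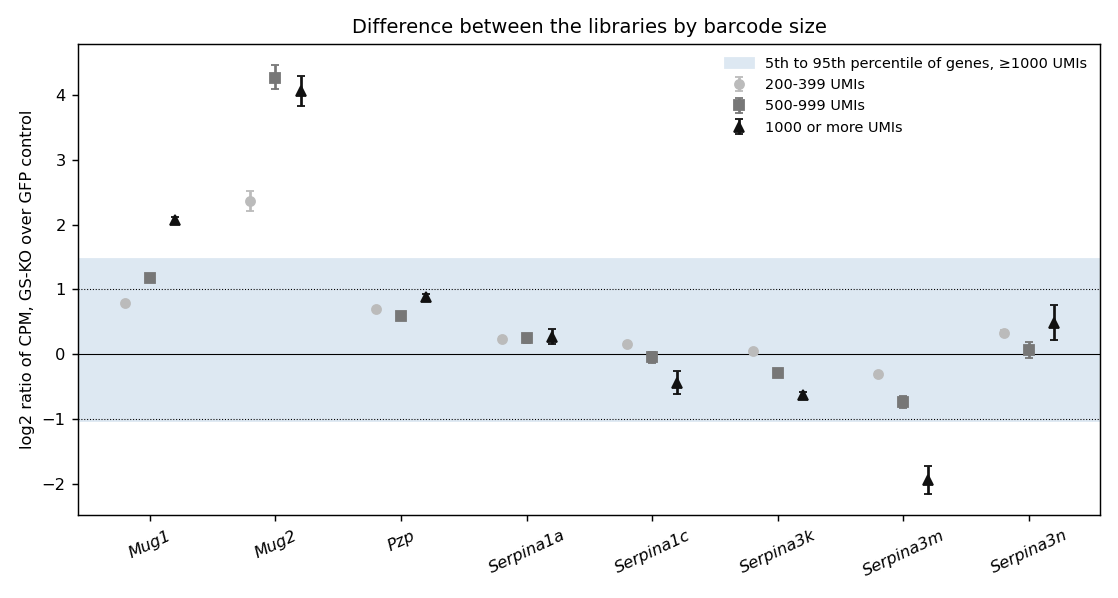
Log2 ratio of CPM in GS-KO over GFP control for each member in 3 barcode size classes, with 95% counting intervals, dotted lines at 2-fold and a band from the 5th to the 95th percentile of all 5991 genes tested in large barcodes. In large barcodes Mug1, Mug2 and Serpina3m lie outside the band of -1.03 to 1.46 and the other members inside it.

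Finer size classes showed where the levels parted. In GS-KO Mug2 stayed between 48.8 and 58.9 CPM in the 3 classes below 400 UMIs, and stood at 181, 449 and 920 CPM in the next 3 and at 1210 CPM or more from 1000 UMIs on. In the control it was 9.76 to 17.0 CPM below 500 UMIs and 70.8 to 84.8 CPM from 1000 UMIs on. Malat1 was also higher at these larger sizes in both libraries. Mug1 in the control had its highest level, 4020 CPM, between 400 and 500 UMIs and 2222 CPM at 2000 UMIs or more, where GS-KO held its highest, 10978 CPM. Serpina3m stayed between 293 and 398 CPM in the control and was at 57.1 CPM in the largest GS-KO barcodes, against 278 CPM at its highest. Serpina3k had its lowest level in the largest barcodes of both libraries, 2824 CPM and 1284 CPM.

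**Figure D4:**
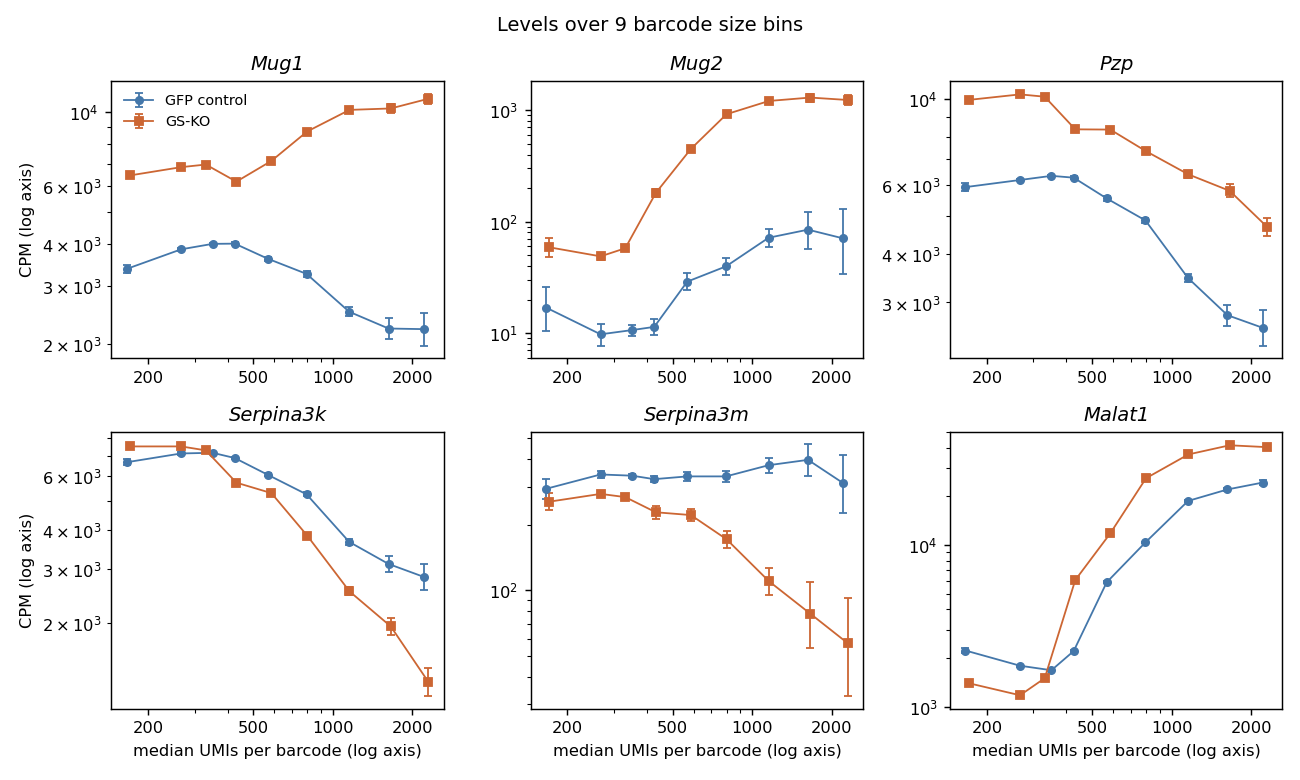
Levels (CPM, log axis) in 9 barcode size bins against the median UMIs per barcode (log axis) for 5 members and Malat1 in the GFP control (blue circles) and GS-KO (orange squares), with 95% Poisson intervals. Mug1 is at 2222 CPM in the largest control barcodes and 10978 CPM in the largest GS-KO barcodes, and Mug2 is higher in large than in small barcodes of both.

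The members were also compared among barcodes of at least 1000 UMIs with the same Malat1 share. At a Malat1 share of 2% to under 3%, held by 544 control and 371 GS-KO barcodes, Mug1 was at 2290 against 9677 CPM, a log2 ratio of 2.08 (2.00 to 2.16). Mug2 was at 85.1 against 1209 CPM there (3.82, 3.45 to 4.23), and Serpina3m at 368 against 116 CPM (-1.66, -2.12 to -1.25). Pzp was at 2930 against 6467 CPM, a log2 ratio of 1.14, which is past 2-fold. Serpina3k differed less there than over all large barcodes, at 3058 against 2417 CPM (-0.34, -0.44 to -0.24). Its log2 ratio was -0.59 (-0.71 to -0.46) at 3% to under 4% and -0.66 (-0.89 to -0.41) at 4% to under 6%. At 2% to under 3% Serpina3n was at 61.4 against 139 CPM (1.17, 0.60 to 1.76), more than over all large barcodes. Its log2 ratio was 0.07 (-0.74 to 0.76) at 1% to under 2% and 0.56 (-0.10 to 1.35) at 3% to under 4%. The Serpina3n interval also spanned 0 under 1% and at 4% to under 6%. In the 274 control and 61 GS-KO barcodes with a Malat1 share under 1%, Mug1 was at 3043 against 5098 CPM (0.75), and the Serpina3m interval of -1.34 to 0.29 spanned 0. Mug2 rested on 10 UMIs in each library there, with a log2 ratio of 2.19 (0.77 to 3.61). The log2 ratios of Mug1, Pzp, Serpina3k and Serpina3m lay farther from 0 in each higher Malat1 bin. For Serpina3m the intervals of neighbouring bins overlapped. For Mug1 they overlapped only between the bins from 2% on. Its log2 ratio was 0.75 (0.57 to 0.92) under 1%, 1.79 (1.69 to 1.88) at 1% to under 2% and 2.57 (2.27 to 2.89) at 4% to under 6%.

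**Figure D5:**
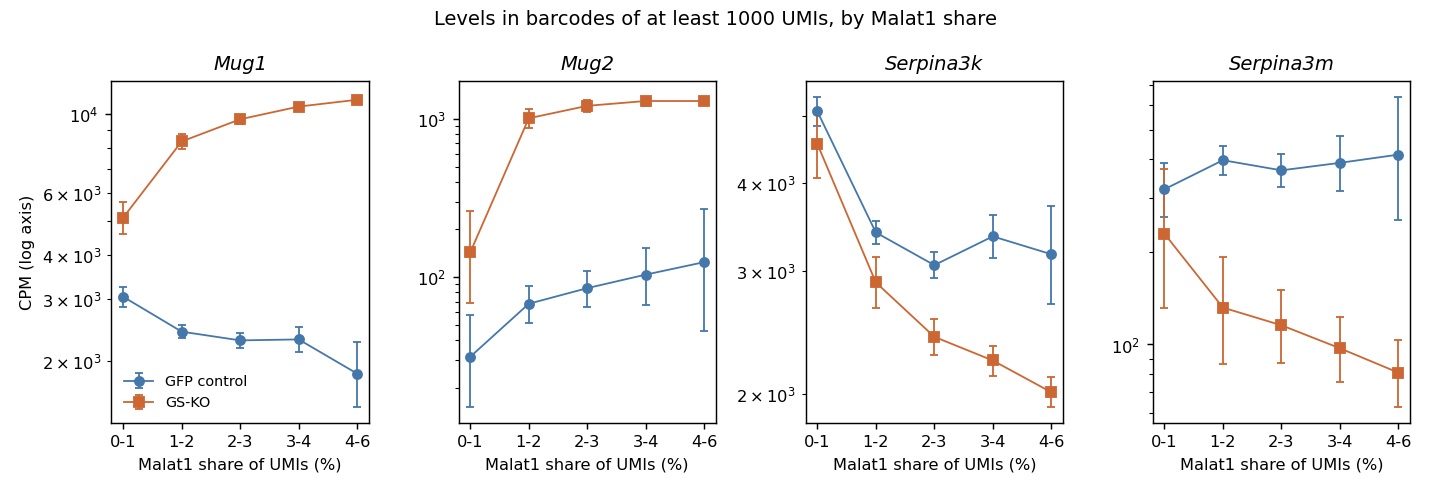
Levels (CPM, log axis) of Mug1, Mug2, Serpina3k and Serpina3m in barcodes of at least 1000 UMIs, by Malat1 share of the barcode's UMIs (%, from the first to under the second number), in the GFP control (blue circles) and GS-KO (orange squares), with 95% Poisson intervals. The intervals of Mug1 are apart in every bin, and those of Serpina3m and Serpina3k overlap under 1%.

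Barcodes of at least 1000 UMIs were clustered without the members and the other serpins and macroglobulin relatives listed here, and named from markers. There were 1528 control and 1552 GS-KO hepatocyte-like barcodes, 15 and 114 Kupffer-like, 5 and 14 plasma cell-like with immunoglobulin light chain variable genes leading, and 155 and 154 in a cluster left unnamed. An immunoglobulin gene, Igkv12-89, also led the Kupffer-like cluster, ahead of Fcer1g and Csf1r, and all 12 hepatocyte markers were detected in it. No endothelial, stellate or bile duct cluster stood apart. Hepatocyte-like was the name for clusters without another class, not one given by enriched markers. At least 11 of the 12 hepatocyte markers were detected in every cluster of any name. None was among the 10 leading genes of a hepatocyte-like cluster. The hepatocyte-like barcodes lay largely in different clusters, with cluster 4 the most numerous in the control (491 barcodes) and clusters 5 and 3 in GS-KO (383 and 377). In hepatocyte-like barcodes Mug1 was at 2400 CPM (2332 to 2469) in control and at 10635 CPM (10496 to 10776) in GS-KO barcodes. Mug2 was at 75.6 against 1277 CPM, and Serpina3m at 380 against 89.2 CPM. Kupffer-like barcodes, which should lack these genes, held Mug1 at 1413 CPM in the control, and in GS-KO Mug1 at 8181 CPM and Mug2 at 1034 CPM, so a UMI in a barcode does not place the RNA in that cell type. The few plasma cell-like barcodes held no Mug2 UMI in either library, and with so few barcodes the exact 95% interval of the share with one reaches 52.2% in the control and 23.2% in GS-KO.

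Among the hepatocyte-like clusters with at least 50 barcodes in a library, 8 in each, Mug1 ranged from 2136 to 3693 CPM in the control and from 8512 to 11606 CPM in GS-KO. Mug2 ranged from 20.3 to 138 CPM and from 926 to 1728 CPM, and Serpina3m from 284 to 441 CPM and from 19.5 to 129 CPM. Pzp ranged from 2597 to 5556 CPM and from 4616 to 7340 CPM, and Serpina3k from 2784 to 6461 CPM and from 1461 to 2899 CPM. The highest control levels of Mug1, Pzp and Serpina3k and the lowest of Mug2 were all in cluster 6. Malat1 was at 2754 CPM there, against 15852 CPM or more in the other control clusters of this size. Outside cluster 6 the highest control levels were 2675 CPM for Mug1, 3666 CPM for Pzp and 4106 CPM for Serpina3k. These are not the same clusters in both libraries: clusters 1 and 6, with 236 and 131 control barcodes, held 48 and 0 of GS-KO, and clusters 11 and 13, with 140 and 70 GS-KO barcodes, held 18 and 25 of the control. In cluster 4, with 491 control and 70 GS-KO barcodes, Mug1 was at 2228 against 11188 CPM. In cluster 3, with 113 and 377 barcodes, Mug1 was at 2136 against 10968 CPM.

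The spread over single barcodes was read after each was thinned to 1000 UMIs. Mug1 had a UMI in 87.6% (85.8 to 89.2) of hepatocyte-like barcodes in the control and 99.9% in GS-KO, and before thinning in 91.8% and 100% of them. Mug2 had one in 7.13% (5.89 to 8.54) and 66.6% (64.2 to 69.0), and in Kupffer-like barcodes in 6.67% and 58.8% (49.2 to 67.9). Unthinned, the Mug2 shares in hepatocyte-like barcodes were 9.23% and 74.3%. Median depth was 1198 UMIs in hepatocyte-like and 1246 UMIs in Kupffer-like control barcodes, and 1218 and 1264 UMIs in those of GS-KO, and the Mug2 shares of the 2 classes overlapped within counting error in each library. With every barcode thinned to 200 UMIs, 0.202% of small, 0.659% of middle and 1.70% of large control barcodes had a Mug2 UMI, and 1.05%, 9.85% and 21.3% of those in GS-KO. Serpina3m had a UMI in 31.7% of hepatocyte-like control barcodes and 8.25% of GS-KO ones, and Serpina3k in 95.2% and 85.6%. The variance of Mug2 UMIs over hepatocyte-like barcodes was 1.00 times its mean in the control, the value of pure counting, and 1.34 times in GS-KO. The means were 0.0740 and 1.28 UMIs per barcode. At a mean as low as that of the control this ratio stays near 1 even where levels vary between barcodes. The 2 values therefore do not compare the spread of the libraries.

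Hepatocyte-like barcodes were ranked from periportal to pericentral, the 2 ends of the liver lobule, by marker genes and cut into 3 bins of equal size in each library. Of the ranking markers, Cyp2e1 had a log2 ratio of pericentral over periportal bin of 0.25 in the control and 1.34 in GS-KO. Cyp2f2 had -1.20 and -1.39. How far the values below differ between libraries through unequal separation of the bins was not tested. Mug2 was lower in the pericentral bin of GS-KO, at 1585 CPM in the periportal and 1008 CPM in the pericentral bin, a log2 ratio of -0.65 (-0.79 to -0.51). In the control the ratio was -0.23 with an interval of -0.86 to 0.39, which does not separate the bins and also holds the GS-KO value. Pzp had -0.26 (-0.32 to -0.20) in GS-KO and 0.02 (-0.07 to 0.11) in the control. Serpina1a had -0.52 (-0.76 to -0.28) in the control, from 539 to 377 CPM, and -0.20 (-0.40 to 0.00) in GS-KO. Mug1 differed by no more than 0.11 between these bins in either library, and the intervals of Serpina1c, Serpina3m and Serpina3n spanned 0. With Glul left out of the ranking, the Mug2 ratio in GS-KO was -0.66. The summed level of the 10 pericentral markers was lower in GS-KO, at 7818 against 3385 CPM, and their part in these values was not tested.

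The other serpins of the same clade varied in both directions. Of 19 listed, 18 were among the gene names, and 12, 9 and 9 reached 100 UMIs in the 3 size classes. At least 2-fold higher were 3, 1 and 1 of these, and 1 was at least 2-fold lower in each class. Over all genes tested 9.29%, 10.7% and 9.5% were at least 2-fold higher and 3.48%, 3.04% and 5.37% at least 2-fold lower. The median log2 ratio was 0.50, 0.36 and 0.25, against the -0.06, 0.08 and -0.01 of all genes. Serpina12, which encodes the adipokine vaspin, was higher in GS-KO at 100 against 352 CPM, 78.2 against 244 CPM and 47.7 against 138 CPM. Serpina6, which encodes corticosteroid-binding globulin, was lower at 802 against 263 CPM, 664 against 223 CPM and 467 against 209 CPM. Serpina1b, the member of the alpha-1-antitrypsin group with the most UMIs, had log2 ratios of 0.32, 0.06 and -0.12. Serpina1d had 0.66, 0.34 and 0.50, and Serpina1e 0.13, 0.36 and 0.25. Serpina3c had 0.06, -0.26 and -0.57, close to the values of Serpina3k. Serpina7, which encodes thyroxine-binding globulin, had 0.43, 0.43 and 0.63, Serpina10, which encodes the protein Z-dependent inhibitor, 0.43, 0.37 and 0.47, and Serpina11 0.56, 0.46 and 0.19. Serpina3f with 13 against 122 UMIs, Serpina3g with 37 against 167 and Serpina3i with 71 against 148 reached 100 UMIs only in small barcodes.

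The remaining lists give the setting of the members, each in large barcodes as GS-KO over control, where the median log2 ratio of all genes was -0.01. Of all genes tested there, 9.5% were at least 2-fold higher and 5.37% at least 2-fold lower, and nothing is read from the list counts. Among serpins of other clades, Serpine2 was at least 2-fold lower, with a log2 ratio of -2.53. Serpinb6a had 0.90 and Agt, the angiotensinogen gene, -0.31. Among relatives of alpha-2-macroglobulin 2 of 4 were at least 2-fold higher, the complement genes Hc (1.13) and C4b (1.01), while C4a had -0.89 and the median was 0.73. None of the 4 clearance genes passed 2-fold: Lrp1, which takes up macroglobulin complexes, had 0.47, Asgr2 0.02, Lrpap1 -0.01 and Asgr1 -0.51, with a median of 0.0065. Of 13 other plasma inhibitors 2 were at least 2-fold higher, Itih3, an inter-alpha-trypsin inhibitor heavy chain, at 208 against 1031 CPM (2.31), and Tfpi2 (1.65), and none was lower, with Fetub at -0.40, Ahsg at -0.23 and a median of 0.49.

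Of 16 plasma and leukocyte proteases 4 were at least 2-fold higher and none was lower, beside 9.5% and 5.37% of all genes. F11, the gene of coagulation factor XI, was at 80.2 against 444 CPM (2.46), and Ctss, a lysosomal protease of macrophages, had 3.11 beside the higher Kupffer cell markers. F9 had -0.40 and F2 -0.24, and the median was 0.60. None of the 15 genes of glycoprotein folding and export passed 2-fold, with Pdia4 at 0.33, Calr at 0.27, Sec61b at -0.47, Lman1 at -0.55 and a median of -0.0019. Of 17 upstream receptors and transcription factors 2 were at least 2-fold higher, Stat5a (2.13) and Stat5b (1.24), and 5 lower, of which Fkbp5, a target of the glucocorticoid receptor, was at 506 against 20.1 CPM (-4.64) and Onecut1, the hepatocyte factor HNF6, at 418 against 19.6 CPM (-4.40). The median of this list was -0.26. Of 16 abundant secreted proteins 2 were at least 2-fold higher, the acute-phase genes Hp (2.44) and Hpx (2.25), and 2 lower, Apoc3 (-1.42) and Apoa2 (-1.05), with a median of -0.14.

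The genes nearest in pattern were ranked among 7700 genes with at least 20 UMIs in each of the 6 sums, by the root mean square difference of centred log2 CPM. For Mug1 these were Trim12c (0.113), Arl4a (0.114) and Plin2 (0.133), the last a lipid droplet coat protein gene, against a median difference of 0.943 over all genes ranked. For Mug2 they were Rad51b (0.318), Chka (0.361) and Fyb2 (0.467), against a median of 2.24. The differences are not scaled to a gene's own range, so those of Mug1 and Mug2 are not compared. Rad51b was at 68.7 CPM in large control and 695 CPM in large GS-KO barcodes. For Serpina3k the nearest was its paralog Serpina3c (0.0229), then Bzw1 (0.0541) and Cnih1 (0.0570). For Serpina3n they were Bscl2 (0.0311), Ccni (0.0641) and Fgg (0.0668), a fibrinogen chain gene at 1677 CPM in large control and 2465 CPM in large GS-KO barcodes. The ranking rests on 6 sums from 2 libraries and is a description.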

How the data were processed

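UMI counts per gene and barcode, whole numbers that are not normalized, are what the authors deposited, 1 matrix per library with 32285 genes. Per the file headers the counts came from Cell Ranger 8.0.0, and the build was mm10 per the submitters' processing notes. How barcodes were selected, the read length and whether introns were counted are not stated in those sources. The smallest barcodes of the control and GS-KO matrices held 119 and 123 UMIs.

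The members and gene lists were chosen with earlier results of these data known. Counts were summed over barcodes of 200 to under 400, 500 to under 1000 and at least 1000 UMIs and divided by the summed UMIs. Log2 ratios had 0.5 counts added to each sum, and a gene was compared when both libraries together held 100 UMIs. Intervals are exact Poisson for levels, exact conditional binomial for ratios and Clopper-Pearson for shares, at 95%, and cover counting error only. With 1 mouse per group no test was made. The interval step was tested on simulated data.

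Barcodes of at least 1000 UMIs from both libraries were clustered with scanpy 1.11.5 (2000 variable genes, 30 principal components, 15 neighbours, Leiden resolution 1.0). The members, the listed serpins and the listed relatives of alpha-2-macroglobulin were left out of the clustering, and the other plasma inhibitors were not. Clusters were named from 3 or more markers. No barcode exceeded 30% mitochondrial UMIs, and no doublet caller was applied. Thinned barcodes kept 1000 UMIs. Named genes are the members, clade A serpins with 100 UMIs, at most 2 genes per direction of each other list, and the 3 nearest patterns of 4 members. One gene that this rule names is not reported here. Alternatives were other size limits, denominators, added values, thresholds and a removal of free RNA. Matched Malat1 share, barcodes of 1 library only and a ranking without Glul were added after seeing the data. Gene positions and transcripts are from GENCODE on mm10, promoters from RefSeq. Tools were scipy 1.17.1, numpy 2.4.6, igraph 0.11.9, biopython 1.88, matplotlib 3.10.9 and pandas 2.3.3 under Python 3.11.15.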

Additional observations from a re-analysis of the deposited data

Results flagged for a closer look

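For 2 members the levels of large and small barcodes differed in opposite directions in the libraries, and with 1 library per group this difference between the libraries was not tested. The log2 ratio of Mug1 of large barcodes (1000 UMIs or more) over small ones (200 to under 400) was -0.70 in the GFP control and 0.57 in GS-KO. That of Serpina3m was 0.15 in the GFP control and -1.47 in GS-KO.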

How the results depend on the processing

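No paired analysis was possible because each group holds 1 library. No member's ratio whose interval excluded 0 changed sign under an alternative, and of the 96 counts and shares recomputed 74 moved by less than their counting interval or by less than 1.5 times. With small barcodes limited to 300 to under 400 UMIs the GS-KO share of Mug1 was 99.2% and of Serpina3n 2.75%. With middle barcodes limited to 600 to under 1000 UMIs the Mug1 share was 98.9% in the control and 91.7% in GS-KO, and with large ones limited to 1500 UMIs or more 96.5% in the control. With free RNA, taken as the profile of small barcodes, removed, the Mug1 share was 98.1% and 88.3% in middle barcodes and 95.2% and 87.8% in large barcodes. The Serpina3n share was then 3.02% and 4.48% in middle barcodes and 10.6% in GS-KO in large barcodes. At a matched Malat1 share (an alternative chosen after seeing the data) the Mug1 share was 97.6% and 91.3% in middle barcodes and 96.2% in the control in large barcodes. The Serpina3n share was 3.68% in GS-KO in middle barcodes and 1.90% in the control in large barcodes. A limit of 1.5-fold in place of 2-fold gave 3 members higher in small barcodes, 1 lower in middle barcodes and 2 lower in large barcodes. Removing free RNA gave 1 lower member in middle barcodes and 2 lower in large barcodes, since Serpina3k reached a log2 ratio of -1.48 there and Serpina3m -3.03. Pzp, under 2-fold in the report, passed it in large barcodes at matched Malat1 share (log2 ratio 1.13) and without free RNA (1.14). The cause of these moves was not tested. The Serpina3n ratio in middle barcodes was 0.54 at matched Malat1 share and -0.21 without free RNA. Depth limits Mug2 in the control, with 161 UMIs in large barcodes.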
